A study of Mus musculus with 15 samples.

Results

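The cytosolic ribosomal protein genes encode the proteins of the small and large ribosomal subunits that translate nuclear mRNAs. They were followed here in bulk RNA sequencing of mouse medial prefrontal cortex (mPFC), a cortical region involved in fear extinction, in which an animal learns that a feared cue is no longer followed by harm. Members were taken by symbol: protein-coding genes named Rpl or Rps plus a number, with an optional x, a or l, together with Rplp0, Rplp1, Rplp2 and Rpsa. Rps6k kinases and pseudogenes were left out, and a mean of at least 1 CPM (counts scaled to the library total) over the 15 libraries was required. Of 27179 genes in the table, 81 matched the symbols and 59 also reached that level. These were 32 Rpl genes of the large subunit, 24 genes of the small subunit and the 3 genes of the ribosomal stalk, which is part of the large subunit.

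All libraries came from C57BL/6J mice. The groups were ABX-treated mice after extinction (post ABX, n = 4), untreated mice after extinction (post non-ABX, n = 4), ABX-treated mice before extinction (pre ABX, n = 4) and untreated mice before extinction (pre non-ABX, n = 3, replicates 1, 3 and 4). ABX usually stands for an antibiotic mixture that depletes the gut microbiota, and the labels name neither the agents nor the dose. The source is given as dissected mPFC, while the library protocol speaks of sorted cells, and the labels do not settle which is meant. They also do not say whether each library is 1 animal, so p-values here measure only how much these libraries vary, which may be technical. In bulk RNA, fewer cells of a type and less RNA per cell cannot be told apart.

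A ribosome joins a small subunit, which reads the mRNA, to a large subunit, which forms the peptide bond, and each subunit carries many proteins that are needed in matched amounts. The mRNAs of most of these proteins start with a cytosine followed by a run of pyrimidines, the terminal oligopyrimidine (TOP) motif, through which mTOR signalling and the RNA-binding protein LARP1 control their translation together. In neurons ribosomes are also found in dendrites and axons, where local translation takes part in synaptic plasticity and memory. The level of a ribosomal protein mRNA does not measure its translation.

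The start of a TOP mRNA is the sequence by which this family is best known, so transcription starts were read from RefSeq (GRCm38.p6), which had entries for 43 of the 59 members with 52 starts. The windows begin 20 bases before an annotated start and are 40 bases long. Where the table holds several starts, Rpl35a is shown at the one with the motif and the others at the first. Capitals mark a C followed by at least 5 C or T, beginning no more than 10 bases before the start. The first 5 lines are members with the motif at the annotated start, the sixth has the run nearby, and the last 3 are abundant members without such a run in range.
Rpl14: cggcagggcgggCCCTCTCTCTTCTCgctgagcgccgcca
Rpl35a: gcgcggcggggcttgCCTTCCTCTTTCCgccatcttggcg
Rps15a: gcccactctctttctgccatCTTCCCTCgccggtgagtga
Rps6: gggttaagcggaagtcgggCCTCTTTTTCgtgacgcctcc
Rplp2: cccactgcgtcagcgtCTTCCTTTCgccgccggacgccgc
Rps24: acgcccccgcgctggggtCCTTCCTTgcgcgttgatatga
Rpl4: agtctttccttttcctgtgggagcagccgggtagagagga
Rps3: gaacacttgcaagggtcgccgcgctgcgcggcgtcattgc
Rpl22: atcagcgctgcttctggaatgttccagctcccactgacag
These windows lie at chr9:120571497-120571536 (plus strand), chr16:33056462-33056501 (plus), chr7:118116128-118116167 (minus), chr4:86857348-86857387 (minus), chr7:141447631-141447670 (plus), chr14:24490658-24490697 (plus), chr9:64173367-64173406 (plus), chr7:99483690-99483729 (minus) and chr4:152324416-152324455 (plus), in the order of the lines.

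A C followed by 4 pyrimidines exactly at an annotated start was found in 10 of the 43 matched members (23.3%), against 3.01% of 27025 genes with a RefSeq start. These 10 were Rpl14, Rpl15, Rpl35, Rpl35a, Rplp2, Rps10, Rps15a, Rps18, Rps21 and Rps6. Allowing a C followed by 5 pyrimidines to lie wholly anywhere from 10 bases before to 20 bases after the start, 26 members (60.5%) held one, against 24.9% of all genes. In the Rpl14 window above, the run of pyrimidines spans the start itself. Within 250 bases before and 50 after the start, on either strand, the letters CCGGAAG, a core of ETS family sites, occurred in 21 members (48.8%) against 9.93% of all genes. The GC box letters GGGCGG were found in 26 members (60.5%) against 38.2%, and AAGATGG, read within 50 bases of the start, in 5 (11.6%) against 3.07%. The letters TATAAA in the window from 40 to 15 bases before the start occurred in 0 members and in 2.41% of all genes. The 10 members with pyrimidines at the start are all among the 26 with a run in the wider range, so these counts are nested. Of the other motifs, none contains another. The motifs were searched as letters and are descriptions, not binding sites.

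Libraries held 44254906 to 57929503 counts, and 16816 genes passed the filter on low counts, all 59 members among them. The SMARTer Ultra Low Input kit does not keep strand. The excitatory neuron markers, 6 of 6 tested, summed to between 5967 and 7693 CPM in every library. Their mean sums were 6971 CPM in post ABX, 7334 in post non-ABX, 6310 in pre ABX and 6873 in pre non-ABX libraries. Astrocyte markers summed to 5118 to 5485 CPM in post ABX libraries and 4829 to 5038 in post non-ABX. Before extinction these astrocyte sums were 5112 to 7179 CPM in pre ABX and 4854 to 5597 in pre non-ABX libraries. Endothelial markers were lower with ABX, with 0 of 7 positive in either comparison and 4 called when both were averaged. Their summed level was 134 to 174 CPM in post ABX libraries, 195 to 220 in post non-ABX, 133 to 186 in pre ABX and 192 to 225 in pre non-ABX. Pericyte and smooth muscle markers had 1 of 6 positive in either comparison, with sums of 60.7 to 84.1, 86.3 to 98.6, 63.2 to 86.0 and 79.7 to 98.8 CPM in the same group order. Of 8 blood cell markers 5 were tested and all 5 were positive in both comparisons, with sums of 0.988 to 10.7, 0.355 to 2.63, 0.544 to 2.90 and 0.465 to 0.720 CPM. The part of these cell types in the values below was not tested.

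The members were modestly expressed for ribosomal protein genes and far from equal to each other. Mean levels ran from 1.00 to 292 CPM with a median of 19.7 CPM, and together the members took 0.168 to 0.223% of all counts in a library. By CPM, the highest were Rpl4, whose protein lines the peptide exit tunnel, at 292, Rps3, a protein of the mRNA entry channel, at 187, Rpl8, which lies close to the peptidyl transferase centre, at 130, and Rps15a at 102. Transcripts differ in length, from 392 to 5179 bases, so the order changed per kilobase. Per kilobase of transcript, Rpl4 was again highest at 190 CPM per kb, followed by Rps15 at 169, Rpl8 at 152, Rps14 at 115, Rplp1 at 99.3 and Rps3 at 97.9. Rps15a stood at only 19.8 CPM per kb as the annotated transcript used for it has 5179 bases. The lowest members per kilobase were Rpsa at 1.07, Rpl11 at 1.21 and Rps7 at 1.23 CPM per kb. The proteins stand in a ribosome in equal numbers, apart from the paired stalk proteins, while these mRNA values spanned more than 2 orders of magnitude.

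The 22 symbols that matched but lay under 1 CPM included proteins of every cytosolic ribosome. Rpl13 averaged 0.0332 CPM, Rpl39 0.0175, Rps29 0.0542, Rps23 0.164, Rpl38 0.249, Rps16 0.308, Rpl24 0.377, Rps27 0.385 and Rpl27 0.389. Rps13 averaged 0.424, Rpl28 0.437, Rpl36 0.468, Rpl36a 0.504, Rps27a 0.576, Rpl5 0.820, Rpl19 0.952 and Rpl10a 0.956 CPM. A further 4 are copies of restricted or poorly described expression: Rpl3l, known from heart and skeletal muscle, at 0.333, Rpl39l and Rpl10l, known from testis, at 0.0511 and 0, and Rpl32l at 0.0279 CPM. Rpl5 carries 5S ribosomal RNA into the large subunit together with Rpl11, which was just inside the level required at 1.00 CPM, as were Rpl9 at 1.05, Rps12 at 1.08 and Rps7 at 1.17. A low value here is a value of the deposited table. It was not shown to be a low amount of RNA in the tissue.

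Ribosomal protein genes have many processed pseudogenes with near-identical sequence, and a read that fits several places can be dropped or given elsewhere, depending on a counting step that no source used here describes. For each gene the share of 50-base words of a representative transcript that occurred in no transcript of another gene was therefore computed. That transcript was chosen by its annotation first and by length only among equals. The members' median share was 49.3% (range 4.91 to 100%), and 30 of 59 (50.8%) lay under 50%. Among 13254 other protein-coding genes of at least 1 CPM the median was 100% and 412 (3.11%) lay under 50%. The 22 symbols under 1 CPM had a median of 31.98%, with 13 under 50%. The share was 4.91% for Rpl35, 6.68% for Rpl9, 7.87% for Rpl10, 15.4% for Rps6 and 16.4% for Rps12, which has 23 annotated pseudogenes. It was 83.5% for Rpl4, 97.0% for Rps3, 94.8% for Rpl22 and 92.1% for Rpl8. Across the 80 symbols with counts, log2 mean CPM, not scaled by length, and the share correlated weakly (Pearson 0.31, Spearman 0.41), as a description across genes. Rpl39 had a share of 83.5% at 0.0175 CPM, while Rpl35 with 4.91% was a member, so the share did not order the levels by itself. Levels of members with low shares are uncertain, and fold changes between groups are less so only if reads were lost at the same rate in each library, which was not tested.

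**Figure D1:**
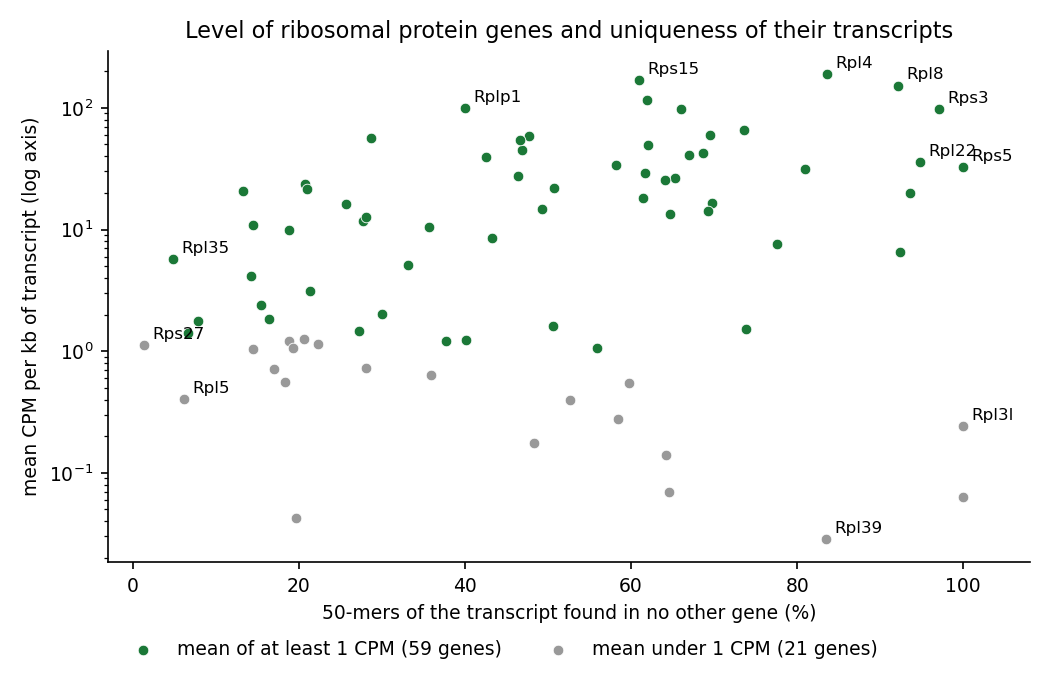
Mean level per kilobase of transcript (CPM per kb, log axis) against the percentage of 50-base words of the transcript found in no other gene, for the 59 members (green) and the symbols under 1 CPM with any count (grey). Members reach 190 CPM per kb at Rpl4, and genes with few words of their own lie at many levels, from Rps27 under 1 CPM upwards.

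Between libraries of a group the members varied somewhat more than other genes. The within-group SD of log2 CPM had a median of 0.19 over the members, against 0.15 over all tested genes of at least 1 CPM. It was smallest for Rpl4 (0.055) and largest for Rplp1 (0.65). Summed over members, CPM were 2007 ± 141 in post ABX, 1917 ± 156 in post non-ABX, 1828 ± 93.8 in pre ABX and 1826 ± 205 in pre non-ABX libraries (SD, n = 4, 4, 4 and 3). These sums differed between groups by about as much as libraries differed within them.

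Of the 59 members, 0 were called in any of the 7 comparisons by edgeR's quasi-likelihood test (Benjamini-Hochberg over the 16816 genes, threshold 0.05). The share of all genes called was 0.0178% for ABX after extinction, 0.00595% for ABX before extinction, 0.0951% for extinction stage with ABX and 0% for stage without ABX. It was 0% for the interaction, 0.624% for ABX averaged over both stages and 0.963% for stage averaged over both arms. With so few calls among all genes, 0 of 59 does not set the members apart. DESeq2 and voom, run as alternatives, called members in some comparisons and are given with each.

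After extinction, ribosomal protein mRNAs tended to be higher in ABX-treated than in untreated mPFC, by small amounts. The log2 fold change was positive for 43 of 59 members with a median of 0.11, against 51.6% of all genes with a median of 0.01. At an unadjusted p under 0.05, 16 members were higher and 0 lower, where 13.3% of all genes reached that level (6.45% higher and 6.83% lower). DESeq2 called 1 member, Rpl14, and 1.08% of all genes, and voom 2, Rpl14 among them, and 1.82% of all genes. The libraries of post ABX lay wholly above those of post non-ABX for 6 members, among them Rpl14, Rpl7, Rpl4, Rps12 and Rpl21 (10.2%), against 4.74% of all genes, and wholly below for 0 members against 6.36%. The median rested partly on 1 library: it was 0.05 without post ABX replicate 1, which also had the most blood transcripts, and 0.16 without post non-ABX replicate 1. It was 0.03 when the 3 libraries richest in blood transcripts (post ABX 1, post non-ABX 2 and pre ABX 1) were left out.

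Before extinction the same comparison gave a median of similar size, while members with a small unadjusted p lay in both directions. The log2 fold change was positive for 36 of 59 members with a median of 0.11, against 51.5% of all genes and a median of 0.01. At an unadjusted p under 0.05, 5 members were higher and 4 lower, where 16% of all genes reached that level (4.57% higher and 11.4% lower). DESeq2 and voom each called 0 members, and 0.0892% and 0.00595% of all genes. The libraries of pre ABX lay wholly above those of pre non-ABX for 7 members, among them Rpl7, Rps20, Rpl22, Rps27l, Rpl4 and Rpl26 (11.9%), against 3.62% of all genes, and wholly below for 0 against 3.14%. The median was 0.06 without pre ABX replicate 1. The number of positive members was 48 without pre non-ABX replicate 3, with a median of 0.08. Both antibiotic comparisons use separate libraries, and Rpl4 and Rpl7 were among the members whose groups did not overlap in either.

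**Figure D2:**
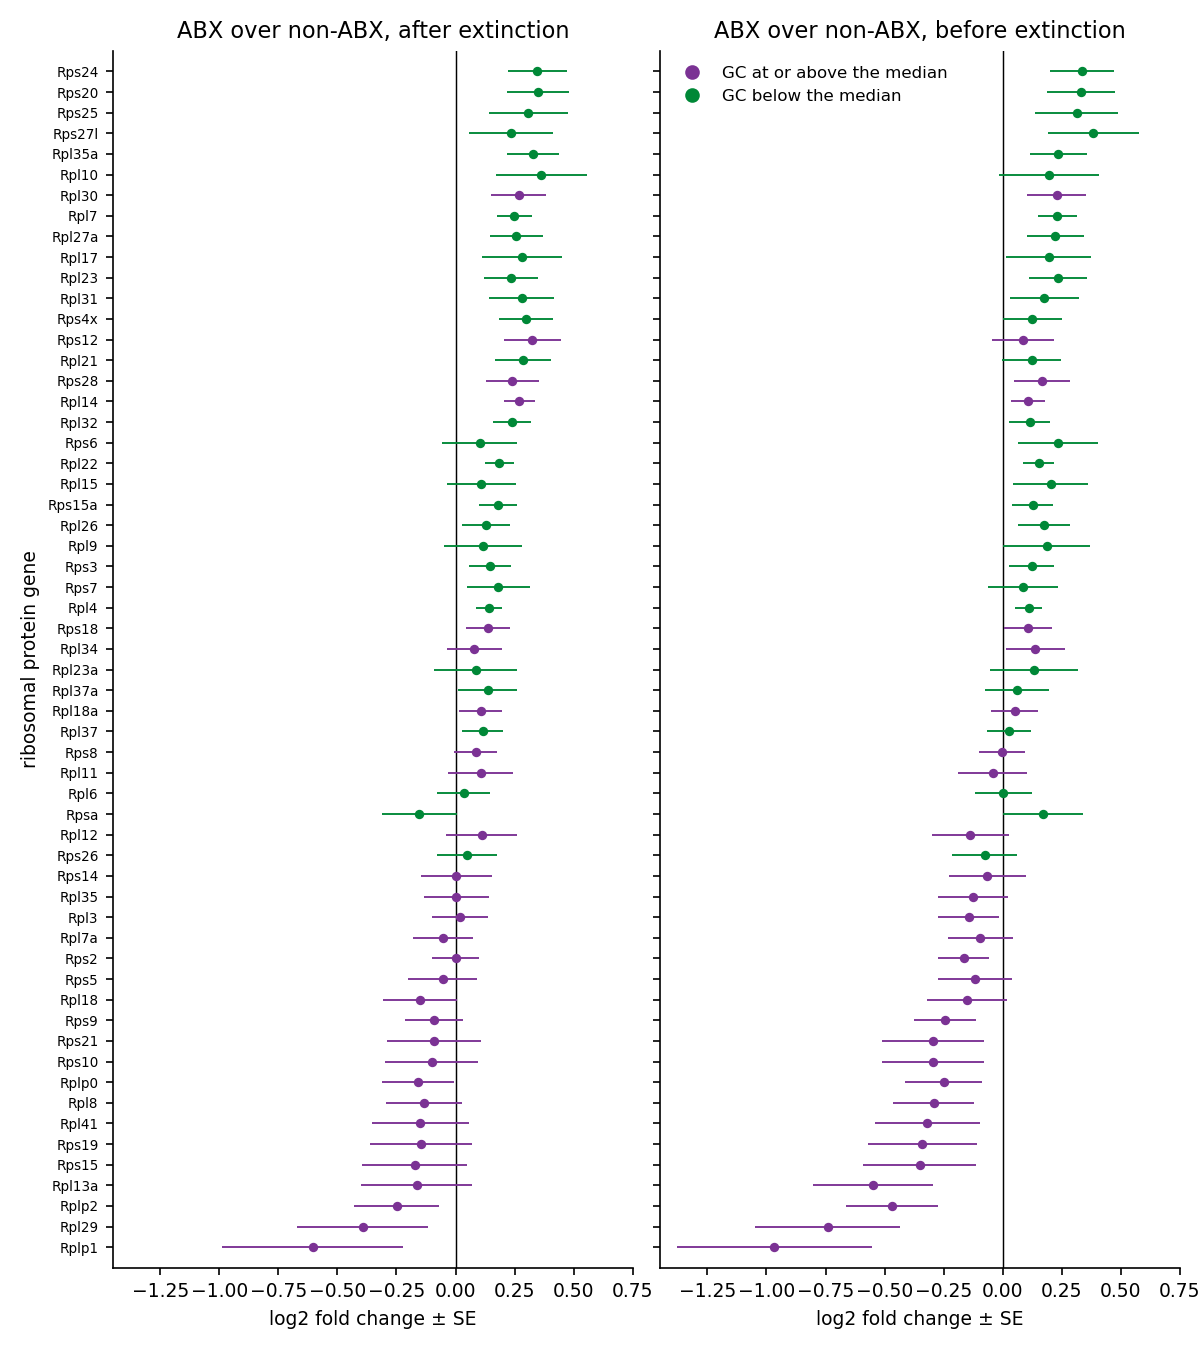
Log2 fold change ± SE (x axis) of 58 of the 59 members, ABX over non-ABX, after extinction (left) and before extinction (right), ordered by the average of both, with members at or above the median GC content in purple and those below it in green. Rplp1 lies lowest in both panels at -0.61 and -0.97, and green members lie to the right of 0 in 28 of 29 cases in either panel.

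Among the large-subunit proteins outside the stalk, 26 of 32 were positive with ABX after extinction (median 0.12) and 22 of 32 before extinction (median 0.11). Rpl7, a component of the large subunit encoded at chr1:16101295-16104433, had 77.3, 69.1, 62.0 and 62.1 CPM in post ABX libraries, against 61.6, 53.2, 56.8 and 55.9 CPM in post non-ABX libraries. It had 72.7, 67.5, 67.4 and 66.9 CPM in pre ABX libraries, against 58.9, 54.4 and 62.0 CPM in pre non-ABX libraries. Every ABX library thus lay above every untreated library of its stage. In edgeR the log2 fold change was 0.25 ± 0.08 (SE; adjusted p = 0.227) after and 0.23 ± 0.08 (adjusted p = 0.311) before extinction. With each library's trend over GC content and transcript length removed, described further on, these values were 0.12 and 0.09.

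Rpl14, a large-subunit protein encoded at chr9:120571517-120574653, had 25.1, 23.1, 22.3 and 26.3 CPM in post ABX libraries, against 20.6, 19.4, 20.1 and 20.2 CPM in post non-ABX libraries. It had 23.1, 22.01, 22.2 and 23.0 CPM in pre ABX libraries, against 19.9, 22.5 and 20.6 CPM in pre non-ABX libraries. After extinction the groups were apart, and before extinction pre non-ABX replicate 3 lay among the ABX libraries. ABX over non-ABX, the difference on the log2 scale was 0.27 ± 0.07 (SE; adjusted p = 0.165) after and 0.11 ± 0.07 (adjusted p = 0.410) before extinction. The difference between these 2 values, the interaction, was 0.16 ± 0.10 and did not pass. Rpl14 is also the member whose start is shown first above, with pyrimidines across the start. DESeq2 gave it an adjusted p of 0.0174 after extinction.

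Rpl4 (chr9:64173387-64178562), the most abundant member and the least variable, had 328, 299, 292 and 307 CPM in post ABX libraries, against 290, 264, 280 and 278 CPM in post non-ABX libraries. It had 311, 299, 289 and 303 CPM in pre ABX libraries, against 285, 273 and 277 CPM in pre non-ABX libraries. The groups did not overlap at either stage, although the lowest ABX library exceeded the highest untreated library by few CPM. Fitted in edgeR, the log2 difference was 0.14 ± 0.05 (SE; adjusted p = 0.308) after and 0.11 ± 0.06 (adjusted p = 0.337) before extinction. With the GC and length trend removed, these values were 0.05 and 0.02.

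Rpl22 (chr4:152324436-152334082), a large-subunit protein whose loss is partly covered in mice by its paralog Rpl22l1, had 86.8, 77.7, 74.4 and 77.7 CPM in post ABX libraries, against 76.0, 65.8, 67.8 and 68.9 CPM in post non-ABX libraries. It had 78.7, 73.5, 77.9 and 75.1 CPM in pre ABX libraries, against 69.9, 66.9 and 69.1 CPM in pre non-ABX libraries. Only post non-ABX replicate 1 reached into the range of the ABX libraries of its stage. This gave a log2 fold change of 0.19 ± 0.06 (SE; adjusted p = 0.270) after and 0.15 ± 0.07 (adjusted p = 0.311) before extinction, or 0.12 and 0.09 with the GC and length trend removed.

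Rpl29 (chr9:106428889-106431568), a small basic large-subunit protein, had lower means with ABX. It had 2.92, 2.90, 3.30 and 5.40 CPM in post ABX libraries, against 4.92, 5.07, 4.80 and 4.28 CPM in post non-ABX libraries. It had 1.75, 2.92, 1.99 and 3.41 CPM in pre ABX libraries, against 3.17, 6.92 and 2.59 CPM in pre non-ABX libraries. Post ABX replicate 4 and pre non-ABX replicate 3 stood high in their groups, and the groups overlapped at both stages. In edgeR the log2 fold change was -0.39 ± 0.28 (SE) after and -0.74 ± 0.31 (adjusted p = 0.311) before extinction. Without post ABX replicate 4 the value after extinction was -0.65, and without pre non-ABX replicate 3 the value before extinction was -0.19.

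Other large-subunit members with known special roles had values of either sign, none of them called. Rpl3, which reaches into the peptidyl transferase centre, had a log2 fold change of 0.02 with ABX after and -0.14 before extinction, and Rpl8 had -0.13 and -0.29. Without pre non-ABX replicate 3 the values before extinction were 0.01 for Rpl3 and -0.04 for Rpl8. Rpl11, which binds the p53 regulator Mdm2 when ribosome assembly is disturbed, had 0.11 and -0.04 at about 1 CPM in every group. Rpl10, an X-linked protein that joins last and readies the large subunit for use, had 0.36 and 0.20, with means of 1.68, 1.30, 1.42 and 1.24 CPM in post ABX, post non-ABX, pre ABX and pre non-ABX libraries. For Rpl10, only 7.87% of the words of the transcript are its own, and its value was 0.20 after extinction without post ABX replicate 1 and 0.03 before without pre non-ABX replicate 3.

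In the small subunit, 17 of 24 members were positive with ABX after extinction (median 0.12) and 14 of 24 before extinction (median 0.10). Rps24 (chr14:24490678-24496960), a protein of small-subunit assembly mutated in human Diamond-Blackfan anaemia, had 69.0, 56.2, 48.1 and 50.7 CPM in post ABX libraries, against 52.1, 40.2, 40.6 and 43.2 CPM in post non-ABX libraries. It had 66.7, 51.6, 59.6 and 51.7 CPM in pre ABX libraries, against 45.5, 39.2 and 51.7 CPM in pre non-ABX libraries. Replicate 1 was the highest of its group in all groups except pre non-ABX, and the groups overlapped. Fitted in edgeR, the log2 difference was 0.35 ± 0.12 (SE; adjusted p = 0.294) after and 0.34 ± 0.14 (adjusted p = 0.311) before extinction. These were 0.23 and 0.20 with the GC and length trend removed, and the value after extinction was 0.23 without post ABX replicate 1.

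Rps6, whose protein is phosphorylated by S6 kinases below mTOR and is widely used as a marker of neuronal activity, is represented by about 2 CPM, with means of 2.10, 1.95, 2.39 and 2.03 CPM in post ABX, post non-ABX, pre ABX and pre non-ABX libraries. Its log2 fold change with ABX was 0.10 after and 0.24 before extinction, and the mRNA level says nothing of the phosphorylation. Rps19, the protein most often mutated in human Diamond-Blackfan anaemia, had 18.0 ± 2.86, 19.9 ± 3.56, 13.8 ± 3.70 and 17.5 ± 6.78 CPM in the same group order, with values of -0.15 and -0.34. Without pre non-ABX replicate 3 the Rps19 value before extinction was 0.03, and with the GC and length trend removed the values were 0.03 and -0.02. The X-linked Rps4x had log2 fold changes of 0.30 and 0.13, and Rps27l, a p53-induced copy of Rps27, had 0.24 and 0.38. The abundant Rps3 had 0.15 and 0.12, and Rps15a 0.18 and 0.13. With the trend removed, Rps4x had 0.19 and 0.03, Rps27l 0.07 and 0.22, Rps3 0.07 and 0.04, and Rps15a 0.13 and 0.06. Without pre non-ABX replicate 3 the values before extinction were 0.03 for Rps4x and 0.05 for Rps15a, and without post ABX replicate 1 those after extinction were 0.08 for Rps27l and 0.06 for Rps3.

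Rps12 and Rpsa showed the smallest unadjusted p of the interaction together with Rpl14. Rps12 had 1.26, 1.15, 1.23 and 1.35 CPM in post ABX libraries, against 0.943, 0.945, 1.05 and 1.05 CPM in post non-ABX libraries. It had 1.02, 1.11, 1.00 and 1.07 CPM in pre ABX libraries, against 0.896, 0.949 and 1.13 CPM in pre non-ABX libraries. The post ABX libraries lay above all the others. Its interaction was 0.24 ± 0.18 (SE) on the log2 scale, and 0.14 without pre non-ABX replicate 4. Rpsa, a small-subunit protein also known as the laminin receptor, averaged 1.97 ± 0.316, 2.18 ± 0.108, 2.17 ± 0.162 and 1.92 ± 0.557 CPM in post ABX, post non-ABX, pre ABX and pre non-ABX libraries, with an interaction of -0.33 ± 0.23, which was -0.14 without pre non-ABX replicate 4 and -0.54 without pre non-ABX replicate 3. Of the 59 members 0 had an interaction at an unadjusted p under 0.05, where 2.06% of all genes did (1.29% positive and 0.767% negative), and DESeq2 and voom called 0, against 0.0238% and 0% of all genes. The median interaction was 0.09 with 49 members positive, against 53.7% of all genes, and -0.00 with 29 positive without pre non-ABX replicate 3.

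**Figure D3:**
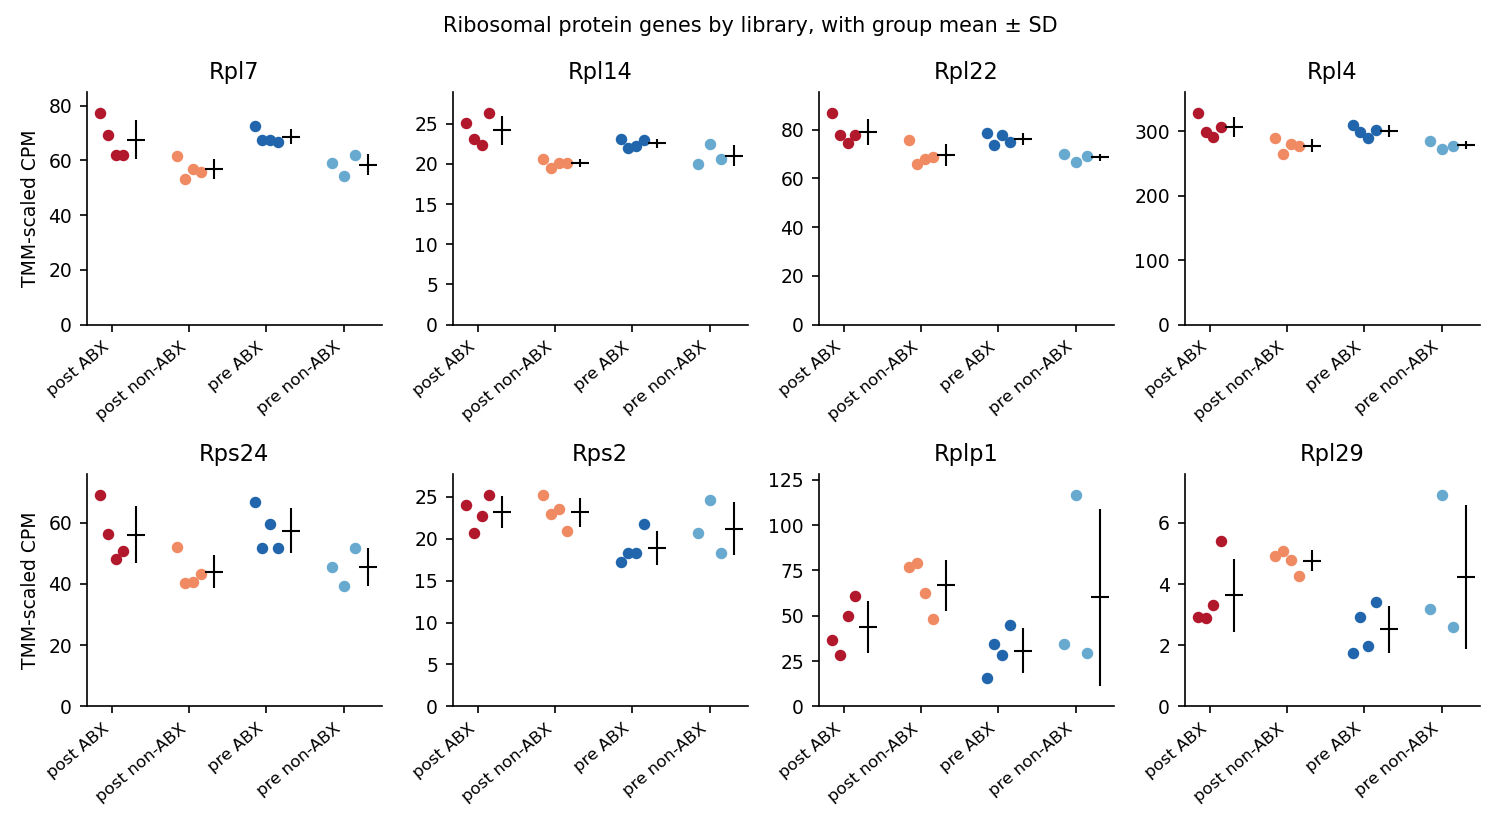
TMM-scaled CPM (y axis, from 0) of 8 members in each library, with points for libraries by group and a black mark with bars for the group mean ± SD (n = 4, 4, 4 and 3). Rpl7 and Rpl4 show both ABX groups above the untreated group of the same stage, and Rplp1 spans 15.6 to 117 CPM.

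The stalk, which recruits elongation factors to the ribosome, had negative values with ABX for all 3 of its proteins at both stages, none of them called, with medians of -0.25 after and -0.47 before extinction. Rplp1 (chr9:61913283-61914510) had 36.7, 28.4, 49.6 and 60.8 CPM in post ABX libraries, against 77.0, 79.0, 62.8 and 48.2 CPM in post non-ABX libraries. It had 15.6, 34.2, 28.3 and 44.9 CPM in pre ABX libraries, against 34.2, 117 and 29.7 CPM in pre non-ABX libraries. Pre non-ABX replicate 3 held the highest value of all and pre ABX replicate 1 the lowest, and the groups overlapped. This gave a log2 fold change of -0.61 ± 0.38 (SE; adjusted p = 0.463) after and -0.97 ± 0.41 (adjusted p = 0.311) before extinction. Without pre non-ABX replicate 3 the value before extinction was -0.05.

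Rplp2, which pairs with Rplp1 on the stalk, had 13.0, 11.0, 15.4 and 14.4 CPM in post ABX libraries, against 16.7, 17.2, 16.1 and 13.8 CPM in post non-ABX libraries. It had 8.65, 10.8, 10.03 and 13.1 CPM in pre ABX libraries, against 11.2, 21.4 and 11.6 CPM in pre non-ABX libraries. As for Rplp1, pre non-ABX replicate 3 held the highest value of all libraries and pre ABX replicate 1 the lowest. In edgeR the log2 fold change was -0.25 ± 0.18 (SE; adjusted p = 0.509) after and -0.47 ± 0.19 (adjusted p = 0.311) before extinction. Rplp0, the base of the stalk, had -0.16 ± 0.15 and -0.25 ± 0.16. Without pre non-ABX replicate 3 the values before extinction were -0.10 for Rplp2 and -0.05 for Rplp0. After extinction, without post ABX replicate 2, they were -0.17 for Rplp2 and -0.09 for Rplp0. All 3 stalk genes have a GC content above the members' median, at 57.3, 55.0 and 52.9% for Rplp1, Rplp2 and Rplp0. With the GC and length trend removed, all 3 stayed negative at both stages, none of them called in either comparison. The values after and before extinction were then -0.51 and -0.67 for Rplp1, -0.21 and -0.35 for Rplp2, and -0.17 and -0.23 for Rplp0.

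The direction of a member followed the GC content of its transcript, a split looked at because earlier results of these data had shown such a trend over all genes. Of the 29 members below the median GC content of 51.6%, 28 were positive with ABX after extinction (median 0.19) and 28 before (median 0.18). Of the 30 members at or above it, 15 were positive after (median -0.03) and 8 before (median -0.14). Across the 59 members the log2 fold change and GC content had a Pearson correlation of -0.66 after and -0.69 before extinction, and across 15332 genes with known GC content of -0.46 and -0.64. These are descriptions across genes that share their libraries. The correlation with the share of unique sequence was 0.01 and 0.05. Of the 29 members with a share over 50%, 21 were positive after (median 0.12) and 19 before (median 0.11), and of the 30 others 22 were positive after (median 0.10) and 17 before (median 0.09).

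The trend is one of libraries as well as of groups. Over all genes, the correlation of a library's log2 level relative to the mean with GC content was -0.25, -0.36, 0.40 and 0.34 in post ABX replicates 1 to 4 and 0.53, 0.68, 0.42 and 0.17 in post non-ABX replicates 1 to 4. It was -0.70, -0.37, -0.72 and 0.15 in pre ABX replicates 1 to 4 and -0.22, 0.67 and -0.44 in pre non-ABX replicates 1, 3 and 4. Apart from post ABX replicate 1, which stood high beside a negative correlation, the GC-rich members mostly moved with these values. Their mean log2 CPM was 4.09, 3.84, 4.06 and 4.15 in post ABX, 4.21, 4.12, 4.03 and 3.90 in post non-ABX, 3.54, 3.84, 3.72 and 4.02 in pre ABX, and 4.27 in pre non-ABX replicate 3 against 3.79 and 3.73 in its other replicates. The part of RNA quality or library preparation in this was not tested.

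The members poorer in GC had a mean log2 CPM of 3.72 ± 0.152 in post ABX, 3.53 ± 0.0954 in post non-ABX, 3.70 ± 0.0811 in pre ABX and 3.53 ± 0.0344 in pre non-ABX libraries (SD, n = 4, 4, 4 and 3). When each library's trend with GC content and length was removed, the median of these members was 0.10 after extinction (24 of 29 positive) and 0.07 before (25 of 29). The GC-rich members then had medians of 0.03 (16 of 30 positive) and -0.01 (14 of 30). Over all 59, 40 were positive after (median 0.07) and 39 before (median 0.05), and the correlation with GC content was -0.32 and -0.31. With 1 surrogate variable in the model in place of the trend, the GC-rich members turned positive, with 30 of 30 after (median 0.17) and 26 of 30 before (median 0.14). Without pre non-ABX replicate 3 their median before extinction was 0.03 with 19 of 30 positive. The direction of the GC-rich members therefore depended on the model and on that library, while that of the members poorer in GC was the same in these fits.

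**Figure D4:**
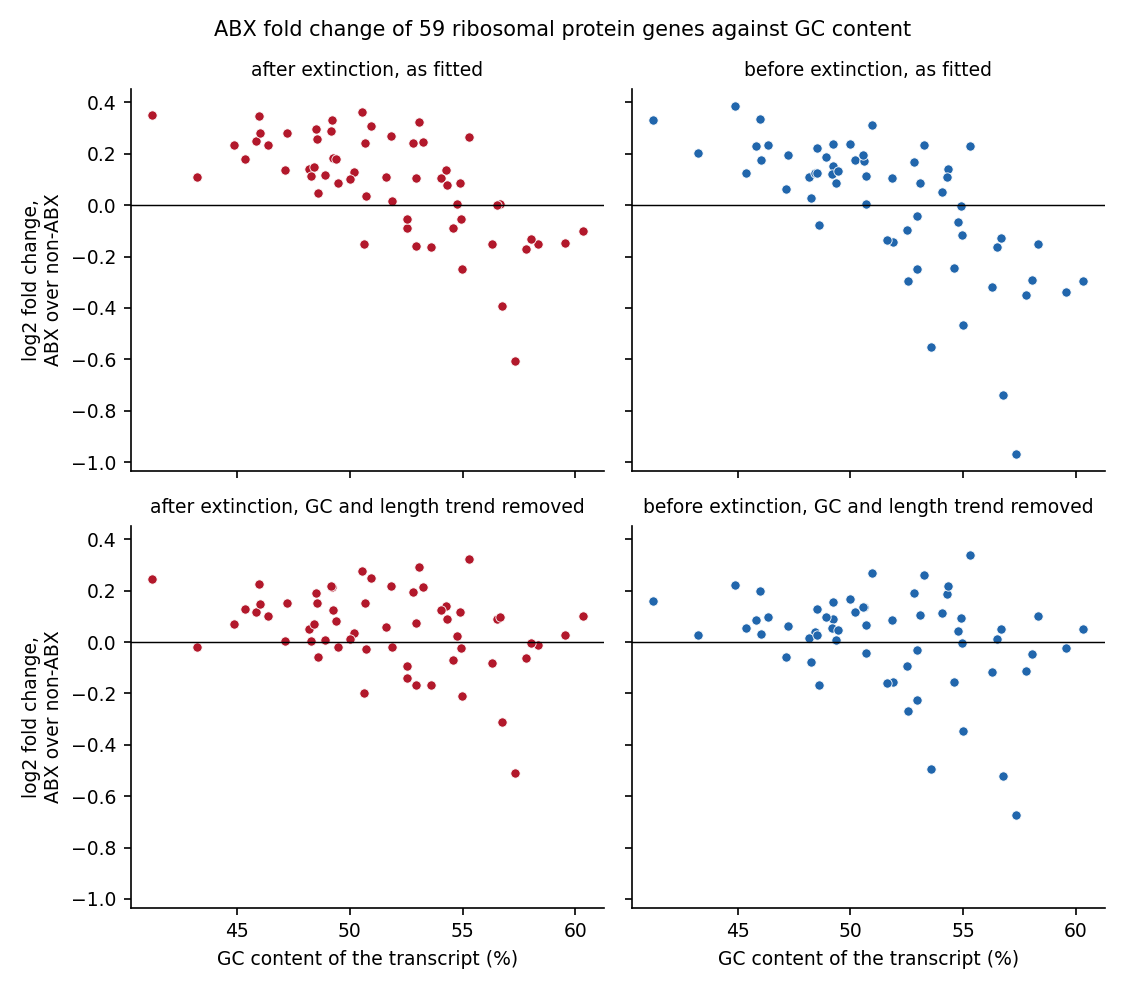
Log2 fold change of each member, ABX over non-ABX (y axis), against the GC content of its transcript in percent (x axis), after extinction (left) and before (right), as fitted (top) and with the GC and length trend of each library removed (bottom). The downward slope, with correlations of -0.66 and -0.69 in the top panels, is weaker in the bottom panels at -0.32 and -0.31.

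Members also moved together from library to library within groups, and mostly by GC content. With group means removed, the 1711 pairs of members had a median Pearson correlation of 0.27 over the 15 libraries, ranging from -0.85 to 1.00. The median was 0.57 among GC-rich members, 0.46 among members poorer in GC and -0.01 between a member of each kind. These pairs share libraries and depth and are given as a description. The heatmap of members by library shows the values by GC content.

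**Figure D5:**
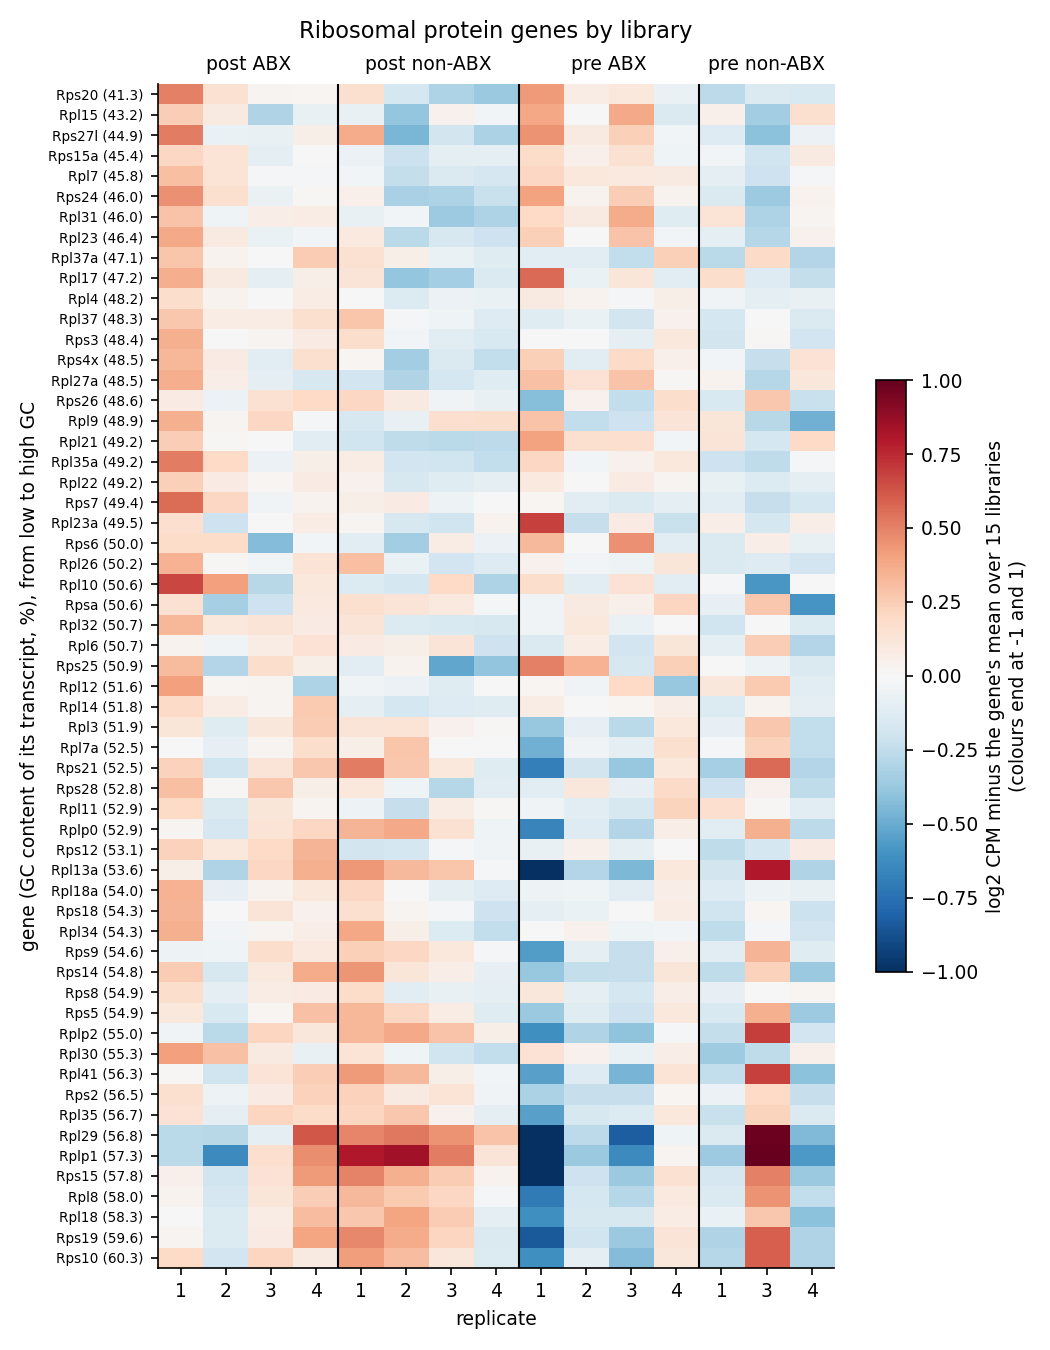
Log2 CPM of 58 of the 59 members minus each member's mean over 15 libraries (colour, ending at -1 and 1) in every library, with members from low GC content (top) to high (bottom) and the GC content of each in percent. Pre non-ABX replicate 3 is high and pre ABX replicate 1 low for many members at the bottom, such as Rplp1 and Rpl29, while replicate 1 of both ABX groups is high at the top.

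The mean over both stages uses all 15 libraries and gave the smallest adjusted p-values. With ABX, 38 of 59 members were positive (median 0.11, against 0.01 over all genes). At an unadjusted p under 0.05, 20 members were higher and 3 lower, where 30.6% of all genes reached that level (12.8% higher and 17.8% lower). The value was 0.24 ± 0.06 (SE) for Rpl7, with an edgeR adjusted p of 0.0552. It was 0.19 ± 0.05 for Rpl14 and 0.17 ± 0.05 for Rpl22, both with an adjusted p of 0.0634. Rps24 had 0.34 ± 0.09 (adjusted p = 0.0649) and Rpl4 0.13 (adjusted p = 0.0737). On the negative side, Rplp1 had -0.79 (adjusted p = 0.0942) and Rpl29 -0.57 (adjusted p = 0.0966), which were -0.32 and -0.29 without pre non-ABX replicate 3. DESeq2 called 12 members in this comparison and 11.8% of all genes, and voom 10 members and 5.36% of all genes, so the call on these genes depends on the test. With the GC and length trend removed, edgeR called 3 members and 4% of all genes, and the values were 0.10 for Rpl7, 0.11 for Rpl22, 0.21 for Rps24 and 0.03 for Rpl4.

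Extinction stage was compared within each arm, and these comparisons reuse the libraries of the antibiotic comparisons. With ABX, post over pre, 44 of 59 members were positive with a median of 0.13, against 51% of all genes and a median of 0.01. At an unadjusted p under 0.05, 4 members were higher and 0 lower, where 16.6% of all genes reached that level (7.67% higher and 8.97% lower). DESeq2 and voom called 0, against 1.68% and 2.77% of all genes. The post ABX libraries lay wholly above the pre ABX libraries for 2 members, Rpl37 and Rps12 (2.69% of all genes), and wholly below for 0 (2.78%). The median was 0.08 without post ABX replicate 1.

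Rps2, which lines the mRNA entry channel beside Rps3, had 24.1, 20.7, 22.7 and 25.2 CPM in post ABX libraries, against 17.3, 18.3, 18.3 and 21.8 CPM in pre ABX libraries. The groups overlapped by pre ABX replicate 4 alone. Its log2 fold change was 0.29 ± 0.10 (SE; adjusted p = 0.203), and 0.13 ± 0.11 without ABX, where means were 23.2 ± 1.75 CPM post and 21.2 ± 3.17 CPM pre. With the GC and length trend removed these were 0.10 and 0.02, and the value without ABX was 0.25 without pre non-ABX replicate 3 and 0.04 without replicate 4. Rpl37, a small large-subunit protein, had 42.1, 36.8, 36.8 and 39.2 CPM in post ABX libraries, against 32.2, 33.4, 30.8 and 36.04 CPM in pre ABX libraries. These groups did not overlap, with a log2 fold change of 0.23 ± 0.09 (SE; adjusted p = 0.238).

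Rps14, whose loss of a copy marks the human 5q- syndrome, averaged 75.4 ± 11.7 CPM in post ABX and 60.2 ± 9.40 CPM in pre ABX libraries, and 75.2 ± 12.02 CPM in post non-ABX and 62.9 ± 14.6 CPM in pre non-ABX libraries. Its log2 fold changes were 0.32 ± 0.15 (SE; adjusted p = 0.296) with ABX and 0.26 ± 0.16 without. With the GC and length trend removed the value with ABX was 0.16, and the value without ABX was 0.17. The value without ABX was 0.14 without post non-ABX replicate 1 and 0.46 without pre non-ABX replicate 3. Rps7 had 1.70, 1.34, 1.13 and 1.19 CPM in post ABX libraries, against 1.17, 1.07, 1.05 and 1.09 CPM in pre ABX libraries, and replicate 1 carried much of its value, which was 0.29 ± 0.13 with all libraries and 0.15 without post ABX replicate 1.

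Without ABX, 40 of 59 members were positive after against before extinction, with a median of 0.08, against 49.1% of all genes and a median of -0.00. At an unadjusted p under 0.05, 0 members were higher and 1 lower, where 4.94% of all genes reached that level (1.51% higher and 3.43% lower). DESeq2 called 0 members and 0.113% of all genes, and voom 16 members (27.1%) and 19% of all genes. The member below that level was Rpl21, which had 2.43, 2.34, 2.32 and 2.33 CPM in post non-ABX libraries, against 3.05, 2.47 and 3.21 CPM in pre non-ABX libraries. Its groups did not overlap, with a log2 fold change of -0.30 ± 0.13 (SE; adjusted p = 0.896), as did 3.57% of all genes in that direction. Rps7 was the member with groups apart in the other direction (2.33% of all genes), at 1.21, 1.23, 1.12 and 1.16 CPM in post non-ABX libraries, against 1.07, 0.988 and 1.03 CPM in pre non-ABX libraries. Rpl18 had a log2 fold change of 0.26 ± 0.17, which was 0.45 without pre non-ABX replicate 3 and 0.12 without replicate 4, and 0.13 with the GC and length trend removed. The median over members ranged from 0.02 without post non-ABX replicate 1 or pre non-ABX replicate 1 to 0.16 without pre non-ABX replicate 3, and was 0.03 without pre non-ABX replicate 4.

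By GC content the stage values ran opposite to the antibiotic values. GC-rich members were positive in 29 of 30 cases with ABX (median 0.25) and 25 of 30 without (median 0.12), and members poorer in GC in 15 of 29 with a median of 0.02 in both arms. The correlation with GC content across members was 0.68 with ABX and 0.52 without, against 0.59 and 0.42 over all genes. With the trend removed it was 0.15 and 0.10, and the median of all members was 0.06 and 0.03. Averaged over both arms, 43 of 59 members were positive (50.2% of all genes), and 7 were higher and 1 lower at an unadjusted p under 0.05, where 20.4% of all genes reached that level (8.62% higher and 11.8% lower). In that average DESeq2 called 0 members and 4.19% of all genes, and voom 24 members (40.7%) and 37.8% of all genes.

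The wider translation machinery was read from 5 gene lists, with 0 genes called in any of them with ABX at either stage. Proteins that belong to or resemble ribosomal proteins but lie outside the symbol rule were positive in 9 of 10 tested of 12 listed after extinction (median 0.08) and 6 of 10 before (median 0.01). Among them Rps3a1, a small-subunit protein, averaged 21.8 ± 4.33 CPM in post ABX and 17.5 ± 1.71 CPM in post non-ABX libraries, and 23.2 ± 3.17 CPM in pre ABX and 18.2 ± 1.86 CPM in pre non-ABX libraries. Its log2 fold changes were 0.31 ± 0.13 and 0.35 ± 0.14 (SE).

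Elongation factors and other genes with TOP mRNAs were positive in 19 of 24 cases after extinction (median 0.12) and 16 of 24 before (median 0.09), medians close to those of the members. Gas5, a noncoding TOP RNA that hosts small nucleolar RNAs, averaged 117 ± 17.1 CPM in post ABX and 87.5 ± 12.5 CPM in post non-ABX libraries, and 106 ± 12.8 CPM in pre ABX and 85.3 ± 7.23 CPM in pre non-ABX libraries. Its log2 fold change was 0.42 ± 0.12 (SE; adjusted p = 0.191) after and 0.31 before extinction. Eif2s3x, a subunit of the factor that brings the initiator tRNA, had 0.24 ± 0.08 after extinction. Eef1a2, the elongation factor of mature neurons, averaged 693 ± 144 CPM in pre ABX and 900 ± 206 CPM in pre non-ABX libraries, a log2 fold change of -0.38 ± 0.15.

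Genes of cap-dependent initiation and mTOR signalling were positive in 11 of 31 cases after extinction (median -0.07) and 14 of 31 before (median -0.10). Larp1, whose protein binds TOP mRNAs, averaged 152 ± 12.5 CPM in pre ABX and 173 ± 7.66 CPM in pre non-ABX libraries, a log2 fold change of -0.19 ± 0.08 (SE). Eif4a1, the helicase of initiation, averaged 37.9 ± 4.55 CPM in post ABX and 31.9 ± 0.390 CPM in post non-ABX libraries, a value of 0.25 ± 0.08. Eif4ebp3, an inhibitor of cap-dependent initiation, had 0.34 ± 0.11 after extinction, and Akt1s1, an inhibitor within mTOR complex 1, had -0.36 ± 0.16 before. Ribosome assembly factors and RNA polymerase I genes were positive in 51 of 79 cases after (median 0.06) and 46 of 79 before (median 0.03), among them Rrp8 at 0.23 ± 0.07 and Gnl2 at 0.18 ± 0.06 after extinction. Before extinction the smallest p of this list belonged to Wdr46 at -0.34 ± 0.12 and Taf1c, a subunit of the polymerase I initiation complex, at -0.72 ± 0.27.

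Mitochondrial ribosomal proteins, which serve the separate ribosome of mitochondria, were positive in 42 of 77 cases after extinction (median 0.03) and 40 of 77 before (median 0.00), near the values of all genes. Mrpl23 had the smallest p, at 0.533 CPM in post ABX and 0.300 CPM in post non-ABX libraries on average, with a log2 fold change of 0.83 ± 0.24 (SE; adjusted p = 0.200). Before extinction Mrps30 had 0.25 ± 0.10 and Mrps18c 0.30 ± 0.13. The difference between the cytosolic members and this list was not tested.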

How the data were processed

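Total RNA of mouse mPFC was sequenced in 15 libraries. The authors deposited raw counts per Entrez gene, not normalized; CASAVA 1.8.2, STAR 2.3.0 and mm10 are named per the submitters' processing notes, and no source used here gives the counting program or annotation. A total of 25275 of 27179 identifiers matched a RefSeq symbol, and 0 per-sample columns went unused. Counts were analysed with R 4.3.3 and edgeR 4.0.16: filterByExpr (minimum count 10, minimum total 15), TMM scaling (factors 0.969 to 1.03), then a quasi-likelihood fit of 4 group means over all libraries, tested two-sided with Benjamini-Hochberg adjustment over 16816 genes. Genes were called at an adjusted p under 0.05. CPM values are TMM-scaled, except the means used by the 1 CPM rule, the below-rule levels and the values per kb, which use library totals. Log2 levels of libraries use a prior count of 2. With 44254906 counts or more per library and a coefficient of variation of 0.112 between libraries, spread rather than counting error limits most values.

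The members and gene lists were chosen with earlier results of these data known. Named members were those with the smallest unadjusted p (4 per pairwise comparison, 3 for the interaction), the 4 highest and 4 lowest by CPM, representatives of roles, and members without overlap in both ABX comparisons; list genes were taken by smallest p, and further members stand in counts or as examples. Alternatives were DESeq2 1.42.0, voom with quality weights (limma 3.58.1), RLE or no scaling factors, TMM without the members, other filters, a replicate block, 1 surrogate variable (sva 3.50.0), the compared groups alone, removal of each library's trend with GC content and length (splines with 5 degrees of freedom, known for 91.2% of tested genes), blood-rich libraries left out, and each library left out. Of 21 pairs of libraries with equal replicate numbers, 8 had a correlation of deviations over 0.1, with a range of -0.75 to 0.60. Pairs with different numbers were not computed, so this cannot decide whether equal numbers pair libraries. The pipeline was tested on simulated data. Sequence words and starts were handled in Python 3.11.15. Some genes taken by these rules are not reported here by name, though they remain in the counts and medians.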

Additional observations from a re-analysis of the deposited data

Results flagged for a closer look

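In 90 groups of 4 libraries, formed by the named members, 2 held a library whose gap to the others exceeded the 95% limit of Dixon's test, where chance gives about 1 in 20. Rpl29 had 5.395 CPM in post ABX replicate 4, while the other post ABX libraries held 2.90 to 3.30 CPM, a gap of 0.839 of the range. Rpl7 had 72.7 CPM in pre ABX replicate 1, while the other pre ABX libraries held 66.9 to 67.5 CPM, a gap of 0.884 of the range.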

How the results depend on the processing

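Counts of calls depended on the test more than fold changes did. For ABX after extinction, where edgeR called 0 members and 3 genes, DESeq2 called 1 and 182, voom 2 and 306, and the GC and length correction with the replicate block 1 and 455. Genes called were 194 with the correction alone, 32 with the compared groups alone, 19 with a surrogate variable and 0 to 13 with 1 library left out. Before extinction genes called were 1 in edgeR, 15 by DESeq2 and up to 28 with 1 library left out. For ABX averaged over stages, where edgeR called 0 members and 105 genes, members called were 12 by DESeq2, 10 by voom, 3 with library totals, 3 with the correction, 6 with the replicate block, 8 with both, and 0 to 12 with 1 library left out (12 without pre ABX 4, 6 without pre non-ABX 4). Genes called were 1977, 902, 673 with the correction, 666 with the block, 1388 with both, 4 with a surrogate variable, 1 without the blood-rich libraries, and 4 to 3057 with 1 library left out. For stage without ABX, voom called 16 members, and the correction with the block 23 genes. For stage averaged over arms, voom called 24 members, and 0 to 16 were called with 1 library left out (16 without pre non-ABX 3). Genes called there were 162 in edgeR, 704 by DESeq2, 6358 by voom, 390 with the correction, 515 with correction and block, 96 with the block, 83 without the blood-rich libraries and 14 to 2262 with 1 library left out. For stage with ABX the correction with the block called 199 genes against 16. For the interaction DESeq2 called 4 genes. With 1 library left out, genes called are given only as ranges, so the members called in those fits are not set apart from other genes. The causes were not tested.

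The members' medians moved by less than the pooled SD of libraries (0.106) in all 207 alternatives. They ranged from 0.05 to 0.13 for ABX before and 0.03 to 0.16 after extinction. That limit is about as large as the medians themselves, from 0.08 for stage without ABX to 0.13 for stage with ABX. A median could vanish within it, so it cannot decide whether the medians are stable. The interaction median went from 0.09 to -0.003 without pre non-ABX replicate 3 and still lay within the limit. Of 747 alternative values for 27 named gene results, 0 reversed and 41 newly passed. These results were taken for small p-values or groups without overlap, or as ABX averages of selected members, which favours a stable sign. Other named members did change sign, such as Rps19 and Rpl3 before extinction without pre non-ABX replicate 3. For ABX averaged over stages Rps24 was called in 7 of the alternative settings, and Rpl14, Rpl22, Rpl35a and Rpl7 in 6 each. Calls among all genes ranged from 1 to 3057 over the alternatives, so repeated calls do not by themselves set these members apart.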

Other observations

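With group means removed, the genes outside the members whose log2 CPM most resembled the members' mean over the 15 libraries, among 11392 genes of at least 5 CPM, were Ramp1 (Pearson 0.96), Tspan9, Entpd2, Akr1a1 and Fis1 (0.95 each). Their transcripts have GC contents of 52.6, 55.3, 57.9, 53.9 and 56.6%. Next in order was Max at 49.6% (Pearson 0.95). Ramp1 is a partner of the calcitonin receptor family, Entpd2 an ecto-ATPase, Akr1a1 an aldehyde reductase and Fis1 a protein of mitochondrial fission. The points share depth and GC trend.

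Both mitochondrially encoded ribosomal RNAs had positive values with ABX, with log2 fold changes of 0.29 for mt-Rnr2 and 0.24 for mt-Rnr1 after extinction and 0.41 and 0.35 before, none of them called.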
